A study of Mus musculus with 17 samples.

Results

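The genes that encode the enzymes writing, copying and removing DNA methylation were followed in the aging mouse hippocampus. They were chosen by name, with earlier results of these data known, and are 7 of the 38355 gene identifiers in the data: the methyltransferases Dnmt1, Dnmt3a and Dnmt3b, the DNMT1 cofactor Uhrf1, and the dioxygenases Tet1, Tet2 and Tet3. PolyA RNA from hand-dissected hippocampus of untreated wild-type C57BL/6J mice was sequenced in 17 libraries. Single-end libraries came from mice aged 3 months (3M, 5 libraries) and 24 months (24M, 6 libraries), and paired-end libraries from mice aged 3 months (3 libraries) and 29 months (29M, 3 libraries). The labels give no litter or animal number, so p-values measure the spread between these libraries. Each held between 9213474 (at 24M) and 28438296 (at 3M) counts on genes, and 24M replicates 1 and 4, which differed by less than the sampling noise, were counted as 1 sample, leaving 5 at that age.

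Methyl groups on cytosines of CpG dinucleotides are placed de novo by DNMT3A and DNMT3B. DNMT1 copies them onto the new strand after replication, guided by UHRF1, which binds hemimethylated DNA. The TET enzymes oxidise 5-methylcytosine to 5-hydroxymethylcytosine, an abundant base in neurons and the first step of active demethylation. Neurons no longer divide, yet they keep DNMT1, DNMT3A and TET proteins, and these enzymes have been studied for their roles in memory.

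All 7 genes are protein coding. In GRCm38 with GENCODE M21 they lie at chr9:20907209-20959888 (Dnmt1, minus strand), chr17:56303321-56323486 (Uhrf1, plus), chr12:3806007-3914443 (Dnmt3a, plus), chr2:153649450-153687730 (Dnmt3b, plus), chr10:62804570-62908996 (Tet1, minus), chr3:133463679-133545139 (Tet2, minus) and chr6:83362373-83459084 (Tet3, minus). Annotated genes on the other strand overlap Dnmt3a (Dnmt3aos), Dnmt3b (Dnmt3bos), Tet2 (Gm42567) and Tet3 (B230319C09Rik). The libraries were made with a TruSeq RNA kit that does not mark strand, so reads of these genes and of their antisense partners cannot be told apart.

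The 250 bases before each RefSeq start site (GRCm38.p6) were searched on both strands for TTTCGCGC, TTTGGCGC, TTTCCCGC and TTTGCCGC, letters of the binding site of the E2F factors, which drive genes of the cell cycle. The first of them was present in 0.256% of 32851 windows and in 1 window each of Dnmt1 and Uhrf1, the maintenance pair. The other 3 variants, found in 0.417%, 0.895% and 0.338% of windows, were in none of the 12 windows of the 7 genes. The 8 matching bases of the maintenance pair are shown with their flanks, which differ, 5′ to 3′ in the direction of the gene, with the match in capitals. The Dnmt1 match begins 219 bases before that start site (chr9:20952824-20952853, minus strand) and reads on the opposite strand, in a window that lies inside the gene and holds 166 exon bases of other Dnmt1 transcripts, 80 of them coding. The Uhrf1 match begins 185 bases before its start site (chr17:56304117-56304146, plus strand), in a window that also lies inside the annotated gene and holds no exon bases.
Dnmt1: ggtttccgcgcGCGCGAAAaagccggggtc
Uhrf1: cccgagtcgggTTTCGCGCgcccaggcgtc
These matches describe the letters in the window. The matched letters hold CpG themselves, and these windows held 26 (Dnmt1) and 30 (Uhrf1) CpG. At least as many were in 9.59% and 5.94% of all windows. The share with the match among windows so rich in CpG was not counted. Tet2 was one of the 2 members whose 29M and 3M samples did not overlap, which also held for 22.4% of all genes tested. Its window is shown for this reason and because it held the most CpG dinucleotides of the 12 (chr3:133544391-133544640, minus strand, CpG in capitals). It lies inside the annotated gene and holds no exon bases.
Tet2: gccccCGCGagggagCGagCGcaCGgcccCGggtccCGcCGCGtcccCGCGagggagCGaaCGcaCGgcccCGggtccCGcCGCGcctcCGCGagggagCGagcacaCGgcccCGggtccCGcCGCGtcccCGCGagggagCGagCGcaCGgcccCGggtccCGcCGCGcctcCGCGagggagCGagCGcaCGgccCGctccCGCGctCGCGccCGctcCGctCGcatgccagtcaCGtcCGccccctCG
It held 51 CpG, a number that 0.067% of windows reached, where the median window held 6. The window of Tet1 (chr10:62887325-62887574, minus strand), of which 100 bases are UTR of another transcript, held 15, a number that 27.3% of windows reached.

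The hippocampus expressed the maintenance and the neuronal de novo enzyme together with all 3 TET genes, while Dnmt3b and Uhrf1 were near the limit of detection. Levels between genes were compared as RPKM, counts scaled to library size and to the length of the merged exons, computed here. At 3M in the single-end libraries Dnmt1 stood at 8.09 ± 0.766 RPKM (mean ± SD, n = 5) and Dnmt3a at 4.92 ± 0.197. Of the oxidising enzymes Tet3 was the most abundant per length at 3.89 ± 0.20, followed by Tet2 at 2.15 ± 0.157 and Tet1 at 1.08 ± 0.139. Uhrf1 was at 0.216 ± 0.0240 and Dnmt3b at 0.157 ± 0.0245 RPKM.

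This order of the 7 mean levels was the same in the 4 groups, and it was also the same with the length of the longest transcript in place of merged exons. With merged exons the samples of neighbours in the order did not overlap within any group, except those of Uhrf1 and Dnmt3b, which overlapped in both 3M groups and at 24M. With the longest transcript Dnmt1 and Dnmt3a at 3M and Tet3 and Tet2 at 24M overlapped as well, both in the single-end libraries. The mean level of Dnmt3a was 31.3 times that of Dnmt3b at 3M and 28.6 times at 24M in the single-end libraries, and 22.0 and 41.2 times at 3M and 29M in the paired-end libraries. Dnmt1 exceeded its cofactor Uhrf1 37.5 and 42.9 times in the single-end groups and 26.0 and 31.0 times in the paired-end groups. These ratios rest on few reads of the rare partner, 5 to 22 counts of Dnmt3b and 7 to 25 counts of Uhrf1 per sample.

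**Figure D1:**
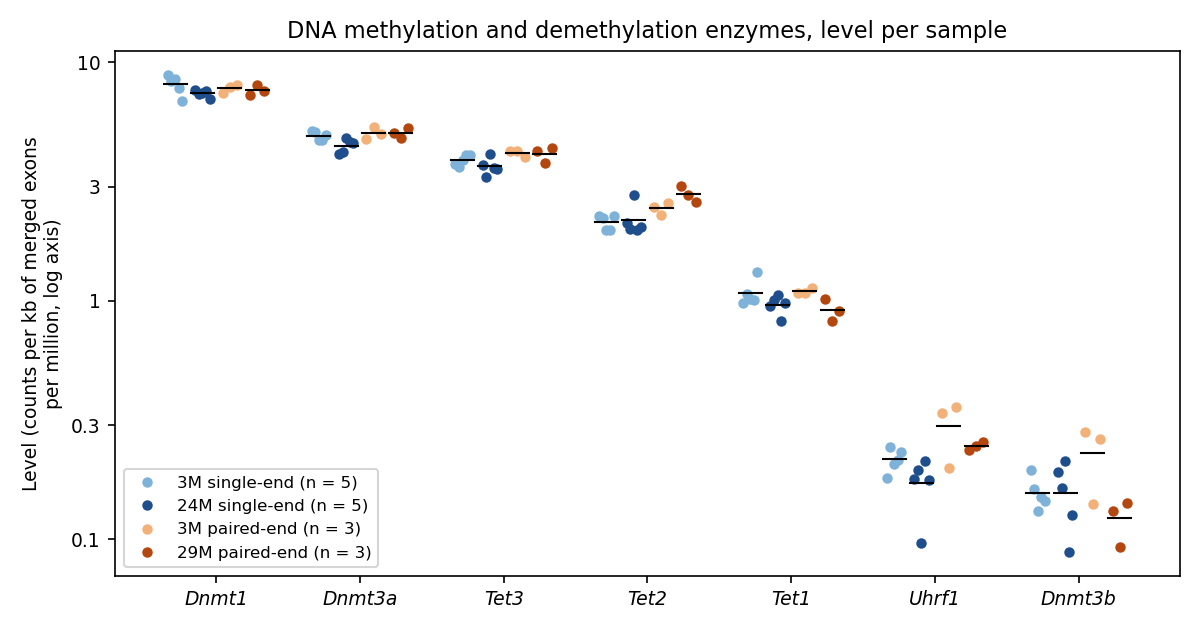
Level of each gene in each sample, in RPKM on a log axis, for the 4 groups. Points are samples, black lines are group means, and 24M replicates 1 and 4 are 1 sample. Dnmt1 is highest and Uhrf1 and Dnmt3b are lowest in all 4 groups.

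Next, aged samples were compared with the 3M libraries sequenced in the same way. No member changed with age by the thresholds used for all genes. A gene was called when its Benjamini-Hochberg adjusted p in edgeR's quasi-likelihood test did not exceed 0.05 and its log2 fold change was 0.5 or more in size. By this rule 0 of 7 members were called at 24M, where 1.98% of 15683 genes were called. At 29M 0 of 6 tested members were called, where 1.45% of 15097 genes were called, and Dnmt3b stayed under the filter on low counts. Without the fold threshold the members called were also 0 at both ages, against 5.58% and 2.99% of all genes. The groups of 5 and 5 samples at 24M overlapped for all 7 members, whereas they did not overlap for 6.57% of all genes. At an unadjusted p of at most 0.05 the count was 1 of 7 at 24M and 2 of 6 at 29M, against 26.1% and 17.3% of all genes. DESeq2 called 0 at each age, and 1 member had an unadjusted p of at most 0.05 at each age by that tool. It gave no adjusted p for Dnmt3b and Uhrf1 at 24M.

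The median log2 fold change of the members was -0.13 at 24M and -0.02 at 29M, and that of all genes tested was -0.003 and -0.002. The data bound the possible change of the more abundant members closely. The 95% interval of the log2 fold change lay within -0.5 to 0.5 for 5 of 7 members at 24M and for 5 of 6 at 29M. The exceptions were Dnmt3b and Uhrf1 at 24M and Uhrf1 at 29M. In bulk tissue, fewer cells of a type and less RNA per cell cannot be told apart, so a value here is an average over neurons, glia and vessels.

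**Figure D2:**
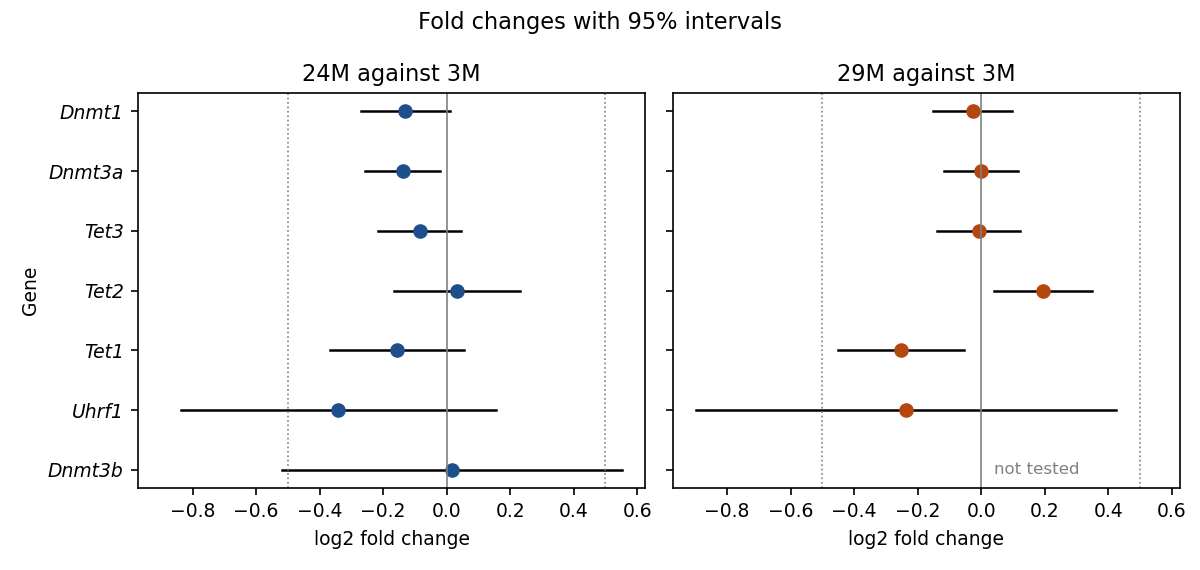
Log2 fold change of each gene at 24M (left, n = 5 against 5) and 29M (right, n = 3 against 3) against 3M, with 95% intervals from edgeR's quasi-likelihood fit. Dotted lines mark the fold threshold of 0.5. The intervals of Uhrf1 and, at 24M, Dnmt3b cross a dotted line, and those of the other members do not.

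Dnmt1, the maintenance methyltransferase, had 65.4, 61.6, 62.9, 57.6 and 50.9 CPM (counts scaled to the TMM-normalized library size) in the 5 single-end libraries at 3M. At 24M it had 56.6, 54.2, 54.6, 55.6 and 51.7 CPM. The groups overlapped because 3M replicate 5 lay below all 24M samples, while the other 4 replicates lay above them. The log2 fold change was -0.13 (95% interval -0.27 to 0.01, adjusted p = 0.226, edgeR's quasi-likelihood test). Without that replicate it was -0.19, and the adjusted p was 0.035 (edgeR), still short of the fold threshold. In that fit 2431 of 15802 genes passed the adjusted p. At 29M the 3 samples (53.8, 59.3 and 56.0 CPM) lay on both sides of the 3M samples (54.9, 57.9 and 59.2 CPM). Here the log2 fold change was -0.03 (-0.15 to 0.10).

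Uhrf1, which recruits DNMT1 to hemimethylated CpG, had 0.773 to 1.04 CPM at 3M and 0.412 to 0.905 CPM at 24M. Its log2 fold change was -0.34 with a wide interval of -0.84 to 0.15 (adjusted p = 0.367, edgeR's quasi-likelihood test). At 29M it had 1.01 to 1.09 CPM, inside the 0.851 to 1.53 CPM of the paired-end 3M samples, and the log2 fold change was -0.24 (-0.90 to 0.43). Leaving out 1 library gave -0.46 to -0.16 at 24M, the latter without 24M replicate 3, and -0.50 to -0.09 at 29M. Both intervals reach below the threshold of -0.5, so a fall of that size cannot be told from none at this depth.

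The expression of both maintenance genes is tied to replication in dividing cells, so genes of cycling cells were listed beside them. Of 15 cycling genes tested 1 fell at 24M and 0 of 14 were called at 29M, where 0.638% and 0.113% of all genes were called lower. The gene was Top2a, the topoisomerase of mitotic chromosomes, which fell by 0.82 on the log2 scale (adjusted p = 0.0434, edgeR's quasi-likelihood test). Top2a was at -1.14 at 29M with an adjusted p of 0.0734 in that test. The list's median log2 fold change was -0.14 at 24M and -0.15 at 29M. Its summed level was 77.5, 80.2, 77.0, 81.3 and 80.1 CPM at 3M and 73.8, 74.9, 73.0, 71.4 and 71.1 CPM at 24M, so every 24M sample was below every 3M sample. In the paired-end libraries the sums were 74.0, 79.1 and 76.8 CPM at 3M and 72.4, 73.4 and 72.3 CPM at 29M, again without overlap. No rate over all genes is given for such sums, which are less noisy than single genes. The replication helicase gene Mcm6 was its most abundant member per length, and none of its 17 genes was at 0 in all libraries.

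Markers of newborn neurons, hippocampal cells that arise from division in adults, were mostly lower. Of 9 genes tested 5 fell at 24M and 2 of 8 at 29M, where 0.638% and 0.113% of all genes were called lower. Neurod1 went the other way at 24M (0.39 on the log2 scale), passing the adjusted p (0.0398, edgeR's quasi-likelihood test) but not the fold threshold, and was at -0.11 at 29M. Igfbpl1 fell at both ages, by 2.07 (adjusted p = 0.00304) and 2.76 (adjusted p = 0.00181) on the log2 scale in edgeR's quasi-likelihood test. Their summed level was 107 to 141 CPM at 3M and 86.2 to 122 CPM at 24M, which overlap, and 100.3 to 134 CPM at 3M and 83.1 to 87.4 CPM at 29M, which do not. Calb2 led the list per length, and no gene of it was at 0 in all libraries. Of 6 markers of oligodendrocyte precursors 1 was called lower at each age, while 3 at 24M and 2 at 29M were above 0. The sum of these markers was 367 to 399 CPM at 3M and 316 to 390 CPM at 24M, which overlap. In the paired-end libraries it was 321 to 345 CPM at 3M and 297 to 324 CPM at 29M, which also overlap. The part of dividing or newborn cells in the values of Dnmt1 and Uhrf1 was not tested.

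Dnmt3a, the main de novo methyltransferase of neurons, was the member with the smallest p at 24M. It had 85.4, 84.7, 78.6, 78.4 and 82.3 CPM at 3M and 68.4, 70.0, 80.4, 76.8 and 76.1 CPM at 24M. At 24M 4 of the 5 samples lay below all 3M samples and replicate 3 lay within their range. The log2 fold change was -0.14 (95% interval -0.26 to -0.02), with an unadjusted p of 0.0244 and an adjusted p of 0.130 in edgeR's quasi-likelihood test. At 29M the 83.8, 79.7 and 88.3 CPM lay within the range of the 79.6, 89.0 and 83.3 CPM at 3M, and the interval of the log2 fold change was -0.12 to 0.12. With offsets for length and GC content the log2 fold change at 24M was -0.08 for Dnmt3a and -0.07 for Dnmt1, and Tet1 then had the smallest adjusted p of the members (0.0888, log2 fold change -0.23, edgeR). The count of Dnmt3a over that of Dnmt1 within a library averaged 1.38 and 1.37 at 3M and 24M, and 1.46 and 1.49 at 3M and 29M.

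Dnmt3b, the methyltransferase best known from the embryo, had 15 to 22 counts per library at 3M and 6 to 21 per sample at 24M. These are 0.671 to 1.0 and 0.452 to 1.08 CPM. Its log2 fold change was 0.02, and the interval of -0.52 to 0.55 reached past the threshold on both sides. In the paired-end libraries 17, 11 and 15 counts at 3M and 8, 5 and 10 at 29M (1.44, 0.720 and 1.35 against 0.673, 0.476 and 0.727 CPM) were too few for the filter. The highest 29M sample barely exceeded the lowest 3M sample. With no filter the log2 fold change was -0.84, and no p is given because that fit gave implausibly small p-values for other genes.

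Tet1 and Tet2, both of which encode enzymes that oxidise 5-methylcytosine, were the only members whose groups separated at 29M. Tet1 had 16.6, 16.7 and 17.4 CPM at 3M and 15.7, 12.8 and 14.0 CPM at 29M. Every 29M sample was below every 3M sample. This gave a log2 fold change of -0.25 (95% interval -0.45 to -0.05), with an unadjusted p of 0.0171 and an adjusted p of 0.178 in edgeR's quasi-likelihood test. Groups of 3 against 3 did not overlap for 22.4% of all genes tested, with the aged samples below for 10.5%.

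Tet2 had 41.5, 38.6 and 43.4 CPM at 3M and 51.1, 46.6 and 43.6 CPM at 29M. Every 29M sample was above every 3M sample, the nearest by a small margin. The log2 fold change was 0.20 (0.04 to 0.35), with an unadjusted p of 0.0169 and an adjusted p of 0.177 in edgeR's quasi-likelihood test. The aged samples lay above for 11.9% of all genes. Neither gene passed the adjusted threshold with any 1 paired-end library left out, where the log2 fold change of Tet1 ranged from -0.33 to -0.19 and that of Tet2 from 0.13 to 0.25.

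The single-end libraries did not show this separation. Tet1 had 15.1, 16.4, 15.7, 15.5 and 20.4 CPM at 3M and 14.7, 15.6, 16.4, 12.7 and 15.2 CPM at 24M, with 3M replicate 5 far above the rest. The log2 fold change was -0.16 (-0.37 to 0.05), and -0.08 without that replicate. Tet2 had 38.3, 37.6, 33.2, 33.4 and 38.4 CPM at 3M and 35.9, 33.8, 46.9, 33.4 and 34.5 CPM at 24M. Only 24M replicate 3 was above the 3M range, and the log2 fold change of 0.03 (-0.17 to 0.23) became -0.08 without it. That library also had the largest share of reads outside annotated features among the single-end libraries, 12.7%, where the other 24M libraries had 9.79% to 10.4%. In the paired-end libraries this share was 11.5% to 12.8% at 3M and 11.98% to 15.9% at 29M. Its part in the levels of Tet2 was not tested. Without 29M replicate 2, the library with 15.9%, the log2 fold change of Tet2 at 29M was 0.20.

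Because both genes are counted in the same library, their ratio does not depend on the normalization. The ratio was chosen after the values were seen and is given without a test. Tet2 had 2.43 ± 0.103 (SD, n = 3) counts for each count of Tet1 in the paired-end libraries at 3M and 3.34 ± 0.284 (n = 3) at 29M, with ranges of 2.31 to 2.50 and 3.11 to 3.66. In the single-end libraries the ratio was 2.20 ± 0.239 (n = 5) at 3M and 2.48 ± 0.280 (n = 5) at 24M, with ranges of 1.89 to 2.54 and 2.16 to 2.86 that overlap.

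**Figure D3:**
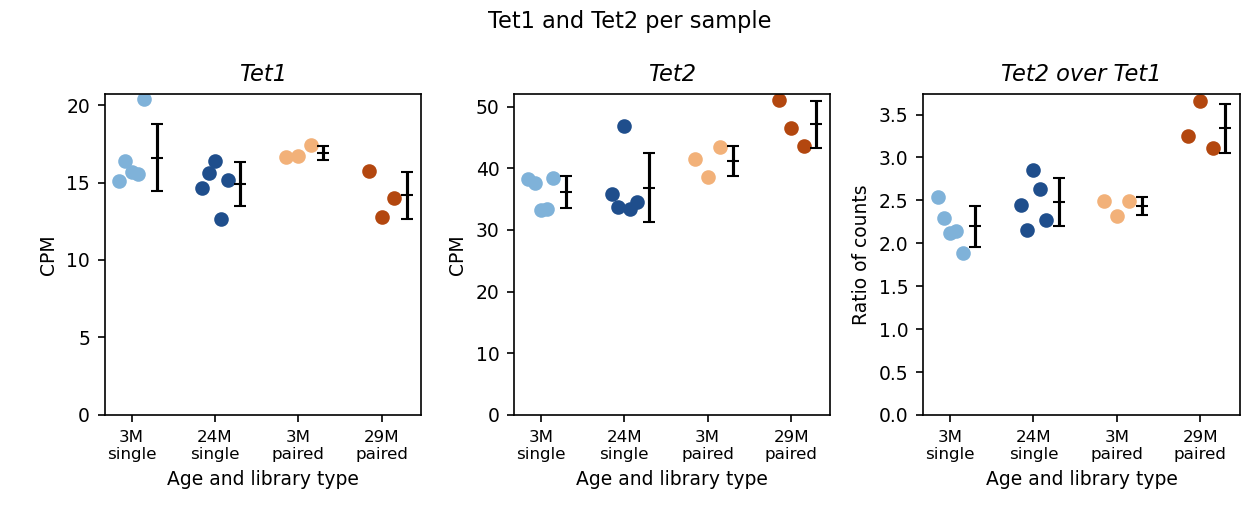
CPM of Tet1 and Tet2 and the ratio of their counts in each sample of the 4 groups, with group mean and SD as black bars (n = 5, 5, 3 and 3). The 29M samples are below the paired-end 3M samples for Tet1 and above them for Tet2 and the ratio, and the single-end groups overlap in all 3 panels.

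Tet3, the most abundant of the 3 TET genes, had 60.7 to 68.4 CPM at 3M and 55.3 to 68.5 CPM at 24M. Its log2 fold change was -0.09 (-0.22 to 0.05). In the paired-end libraries it had 66.5 to 71.1 CPM at 3M and 63.1 to 72.7 CPM at 29M, and the log2 fold change was -0.01 (-0.14 to 0.12). Aged and 3M samples overlapped in both library types.

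Whether the effects at 29M and 24M differ was tested as an interaction over all libraries. In edgeR's quasi-likelihood test 0 of 7 members and 0% of 16055 genes passed an adjusted p of 0.05, and at an unadjusted p of at most 0.05 the members were 0 and all genes 10.4%. DESeq2 also gave 0 members, 0 of them with an unadjusted p of at most 0.05. The member with the largest difference was Dnmt3b, at -0.86 (95% interval -1.80 to 0.07, adjusted p = 0.505, edgeR). Its paired-end samples, with 11 to 17 counts at 3M and 5 to 10 at 29M, were under the filter of the 29M comparison. With the default filter these paired-end samples were tested only in this fit of all 4 groups, so the rank of Dnmt3b rests on few reads. Tet2 followed at 0.16 (-0.14 to 0.45), and leaving out 1 library gave 0.09 to 0.26. Without 29M replicate 1 Tet2 was at 0.09, smaller in size than Tet1 (-0.19) and Dnmt3a (0.13). Age and library type are confounded here, since each aged group was sequenced with its own 3M group in its own read format.

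Genes that work with these enzymes or depend on them were called about as rarely as all genes. The 7 lists, of partner proteins, methyl-CpG readers with their MBD-domain relatives, demethylation and repair enzymes, TET cofactor genes, the methyl donor cycle, germline genes kept methylated in somatic cells, and imprinted genes, hold 113 genes, of which 111 were matched. Of the 88 tested at 24M 0 were higher and 1 was lower, and of the 89 tested at 29M 1 was higher and 0 were lower. Of all genes, 1.34% were called higher and 0.638% lower at 24M, and 1.34% and 0.113% at 29M. By the adjusted p alone, 6 genes of these lists (6.82%) passed at 24M and 4 (4.49%) at 29M, beside 5.58% and 2.99% of all genes. The lists' joint median log2 fold change was 0.02 at 24M and -0.01 at 29M.

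**Figure D4:**
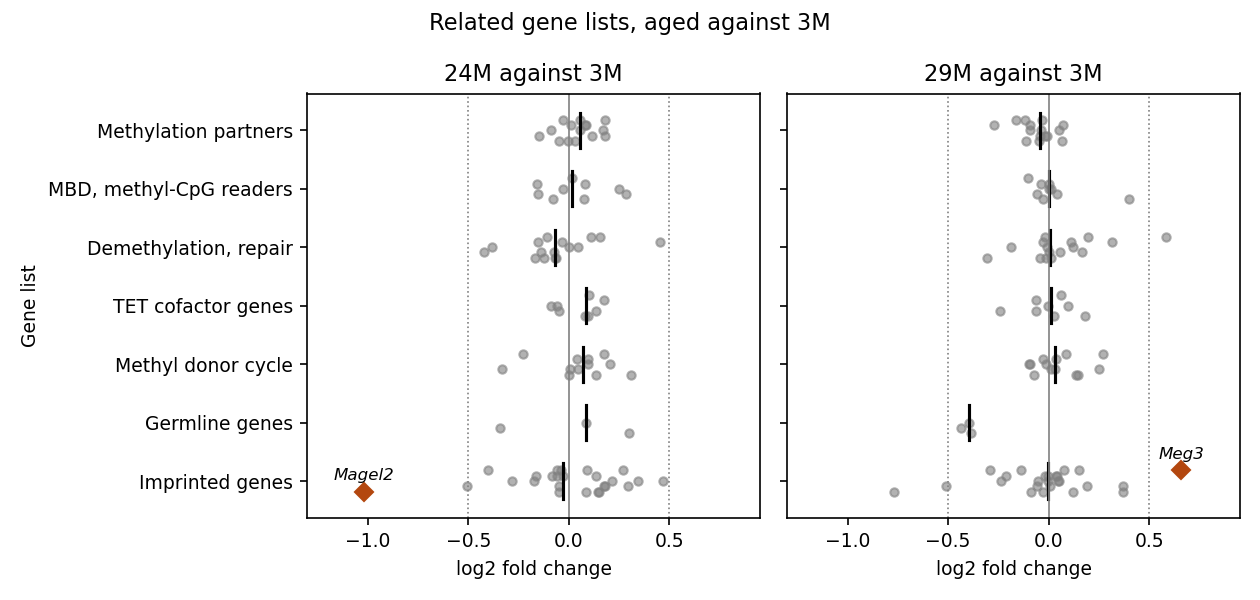
Log2 fold change of every tested gene of the 7 related lists at 24M (left) and 29M (right) against 3M. Grey points are genes not called, diamonds are called genes, black bars are list medians and dotted lines mark the fold threshold of 0.5. Magel2 at 24M and Meg3 at 29M are the called genes.

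Among the partners of the methyltransferases, 0 of 15 tested genes were called at either age, and the median log2 fold change was 0.05 at 24M and -0.04 at 29M. Ehmt2, the H3K9 methyltransferase G9a and the most abundant of them per length, was at -0.09 and 0.05, and its partner Ehmt1 at -0.15 and -0.01. Setd2, which places H3K36 trimethylation in gene bodies, was at -0.05 and -0.11. The histone deacetylase gene Hdac2 was at 0.05 and -0.12. Each of these 8 values had an adjusted p above 0.05 in edgeR's quasi-likelihood test.

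Among the 9 methyl-CpG readers and relatives with an MBD domain 0 were called. Mbd2, a reader of the NuRD complex, passed the adjusted p at 24M but not the fold threshold, with 41.6 ± 3.50 CPM at 3M and 49.5 ± 2.24 CPM at 24M (n = 5 each, log2 fold change 0.25, adjusted p = 0.0378, edgeR's quasi-likelihood test). All its 24M samples were above all 3M samples, which held in that direction for 3.15% of all genes. At 29M its log2 fold change was -0.001. Mbd6, whose MBD domain is not known to bind methylated DNA, passed at 29M, with 19.4, 24.3 and 24.4 CPM at 3M and 30.5, 29.7 and 29.8 CPM at 29M (log2 fold change 0.40, adjusted p = 0.0209, edgeR). It was at -0.08 at 24M. Zbtb33, the reader Kaiso, was at 0.29 and -0.06. Mbd5 was at 0.02 and -0.10, and Mbd3, a NuRD subunit that does not read methylated CpG and the most abundant of the list per length, at -0.16 and -0.04, none with an adjusted p of 0.05 or less. All 24M samples of Mbd3 were below all 3M samples, which held in that direction for 3.42% of all genes.

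Of the 16 tested genes of demethylation and repair 0 were called at each age, and their medians were -0.07 and 0.01. Gadd45b and Gadd45g, stress-induced genes linked to demethylation at neuronal promoters, were at -0.42 (adjusted p = 0.0643) and -0.38 (adjusted p = 0.080) at 24M in edgeR's quasi-likelihood test, and at 0.17 and -0.19 at 29M. Tdg, the glycosylase that excises oxidised methylcytosines, was at -0.12 and -0.31 (adjusted p = 0.0728 at 29M, edgeR). Its level differed greatly between library types, with 5.60 ± 0.416 CPM at 3M in single-end (n = 5) and 26.3 ± 0.524 CPM in paired-end libraries (n = 3). Hdac1 (7.41 and 33.5 CPM) and Pcna (15.9 and 39.3 CPM) among the partners and Ahcy of the methyl donor cycle (2.70 and 22.2 CPM) differed between library types in the same direction. The cause was not tested, and the levels of these 4 genes are uncertain. The deaminase gene Apobec3 was at 0.11 and 0.58 (adjusted p = 0.180 at 29M, edgeR), and Parp1, the most abundant per length, was at 0.003 and -0.01.

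TET enzymes need 2-oxoglutarate, which isocitrate dehydrogenases supply, and bind the glycosyltransferase OGT. Of 8 tested genes of this list 0 were called. Ogt passed the adjusted p at 29M below the fold threshold, with 239, 245 and 259 CPM at 3M and 293, 278 and 269.9 CPM at 29M (log2 fold change 0.18, adjusted p = 0.0361, edgeR's quasi-likelihood test). At 24M its log2 fold change was 0.10, and replicate 3 had 381 CPM where the other 24M samples had 262 to 272 CPM. Idh1 was at 0.17 at 24M, where its adjusted p in edgeR's test was 0.0522, and at -0.07 at 29M. All its 24M samples were above all 3M samples, which held in that direction for 3.15% of all genes. Cxxc4, which encodes the TET2 regulator IDAX, was at 0.14 and -0.24. At 29M the groups did not overlap for Cxxc4, nor for Tdg, Apobec3 and Mat2a of the other lists, as for 22.4% of all genes.

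In the methyl donor cycle, which makes S-adenosylmethionine, 0 of 12 genes were called at 24M and 0 of 13 at 29M. Cbs, which drains homocysteine from the cycle, had 40.2, 33.4, 34.7, 36.3 and 33.7 CPM at 3M and 29.3, 26.1, 26.4, 29.4 and 30.4 CPM at 24M. All 24M samples were below all 3M samples, as for 3.42% of all genes, and the log2 fold change of -0.33 passed the adjusted p (0.0184, edgeR's quasi-likelihood test) but not the fold threshold. At 29M it was -0.09. Mat2a, the enzyme that makes S-adenosylmethionine in brain, was at 0.14 and 0.15 (adjusted p = 0.0942 and 0.0795, edgeR). Ahcyl1, the most abundant per length, was at 0.04 and -0.03.

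Most germline genes that DNA methylation silences in somatic tissue were below the filter on low counts. Of 18 such genes 3 passed the filter at each age (Dazl, Ddx4 and Tdrd1) and 0 were called. Their mean levels were 3.49, 3.47 and 1.19 CPM at 3M in the single-end libraries, where Dnmt3b and Uhrf1 had 0.802 and 0.920 CPM. These values are not scaled to length, and the samples of Tdrd1 (0.713 to 1.68 CPM) overlapped those of both members. Their log2 fold changes were 0.30, -0.34 and 0.08 at 24M and -0.39, -0.44 and -0.40 at 29M. The summed level of the list was 8.58 to 11.3 CPM at 3M and 9.39 to 12.6 CPM at 24M, and 10.97 to 12.3 CPM at 3M and 8.72 to 12.5 CPM at 29M. Dazl was its most abundant gene per length, and Rpl10l and Hormad1 were at 0 in all libraries. Tex11 stayed under the filter, with mean levels of 0.404 CPM at 3M and 0.691 CPM at 24M, which overlap, and of 0.449 CPM at 3M and 0.929 CPM at 29M, where all 29M samples were above all 3M samples. It passed the filter and was called higher at 24M when all 4 groups were fitted together (log2 fold change 0.79) and with 24M replicates 1 and 4 kept apart (0.81). Its 3M samples had at most 0.468 CPM single-end and 0.594 CPM paired-end, where aged samples reached 0.835 CPM at 24M and 1.09 CPM at 29M. Tex11 thus passed the filter through the aged samples, so these calls are no test of a change. With no filter it was not called.

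Imprinted genes, whose parental expression depends on methylation marks kept through life, held both called genes. Magel2, a paternally expressed gene of the Prader-Willi region, had 3.50, 3.17, 3.36, 4.89 and 4.35 CPM at 3M and 2.09, 1.82, 1.39, 2.21 and 2.04 CPM at 24M. It fell by 1.02 on the log2 scale (SE 0.174, adjusted p = 0.00841, edgeR's quasi-likelihood test) without overlap. Leaving out any 1 single-end library kept the call, and it was lost with the replicate number as a block, although equal numbers did not pair the samples. In the paired-end libraries it had 1.36, 4.45 and 2.07 CPM at 3M and 1.01, 2.09 and 1.74 CPM at 29M, which overlap (log2 fold change -0.77, adjusted p = 0.348, edgeR). Magel2 is known from the hypothalamus, and the summed level of 9 hypothalamic marker genes, 2 of them abundant enough to test, was 2.32 to 11.7 CPM at 3M and 2.17 to 8.48 CPM at 24M. The part of this tissue in the level of Magel2 was not tested.

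Meg3, a maternally expressed long non-coding RNA, had 1052, 1098 and 1324 CPM at 3M and 1952, 1804 and 1729 CPM at 29M. It rose by 0.66 on the log2 scale (SE 0.0748, adjusted p = 0.000378, edgeR's quasi-likelihood test). Leaving out any 1 paired-end library kept the call, and it was lost when all 4 groups were fitted together. In the single-end libraries 4 of the 24M samples had 633 to 982 CPM and replicate 3 had 1910 CPM, against 655 to 1186 CPM at 3M, and the log2 fold change was 0.27 (adjusted p = 0.529, edgeR). Reads outside annotated features were 12.7% in that replicate, and the part of this share in the level of Meg3 was not tested.

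Other imprinted genes passed the adjusted p in edgeR's quasi-likelihood test without reaching the fold threshold. At 24M Plagl1 (0.47, adjusted p = 0.0268) and Inpp5f (0.18, adjusted p = 0.0487) were higher, and they were at 0.05 and -0.06 at 29M. Usp29 was at -0.40 at 24M (adjusted p = 0.0175) and Ndn, a neighbour of Magel2 in the Prader-Willi region, at -0.24 at 29M (adjusted p = 0.00474, edgeR). At these ages all aged samples of both genes were below all 3M samples. That held for 3.42% of all genes at 24M and 10.5% at 29M. At the other age Usp29 was at -0.29 (adjusted p = 0.146) and Ndn at -0.17 (adjusted p = 0.133, edgeR). Nnat, the most abundant imprinted gene per length, was at -0.04 and -0.14. Of 25 tested imprinted genes 12 were above 0 and 13 below 0 at each age.

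All 10 marker genes of the labelled tissue, the hippocampus, were abundant enough to test, and 0 were called at either age. Wfs1 passed the adjusted p at 29M below the fold threshold (log2 fold change -0.28, adjusted p = 0.0124, edgeR's quasi-likelihood test). Their summed level was 1174 to 1509 CPM at 3M and 1327 to 1641 CPM at 24M, and 1401 to 1427 CPM at 3M and 1377 to 1397 CPM at 29M, with Neurod6 the most abundant per length. The sums overlapped in the single-end libraries, and in the paired-end libraries all 29M sums were below all 3M sums. One 3M single-end library, replicate 4, had 977 CPM of striatal markers where the other 4 had 456 to 473 CPM, and the lowest hippocampal sum. Without it no member was called at 24M, and Dnmt3a was at -0.15 and Tet1 at -0.18.

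Microglial markers were higher in aged samples. At 24M 2 of 9 rose and at 29M 3 of 9, where 1.34% of all genes were called higher at each age, and all 9 had a log2 fold change above 0 at each age, with medians of 0.36 and 0.36. Their summed level was 379 to 437 CPM at 3M and 487 to 519 CPM at 24M, and 368 to 380 CPM at 3M and 481 to 504 CPM at 29M, so the groups did not overlap. No marker was at 0 in all libraries. All 5 genes of the blood list were above 0 at each age as well, with 0 called at 24M and 2 at 29M, Hba-a1 (log2 fold change 0.95) and Alas2 (0.85). Their summed level was 53.3 to 108 CPM at 3M and 76.3 to 544 CPM at 24M, and 70.6 to 83.7 CPM at 3M and 75.9 to 165 CPM at 29M, so these groups overlapped. Hbb-bs was the most abundant per length and none was at 0 in all libraries. The part of microglia and blood in the values of the 7 enzymes was not tested.

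Finally, the genes with the pattern most like each member were named by Pearson's r of log2 CPM over the 10 single-end samples, 2 for each member. Their r lay between 0.900 and 0.970, and over the 6 paired-end samples the same 14 genes had r from -0.760 to 0.876, below 0 for 4 of them. For Tet2 the nearest were Eml5 (r = 0.970) and Fnbp4 (0.939), with 0.694 and 0.857 in the paired-end samples. Without the 2 samples farthest from the median of Tet2, 24M replicate 3 among them, these were 0.901 and 0.852. The same step lowered others more, as Fam210b for Tet1 from 0.900 to 0.432 and Gm8318 for Uhrf1 from 0.928 to 0.57. For Dnmt1 the nearest were Decr2 (0.955) and Tysnd1 (0.948), with -0.138 and -0.760 in the paired-end samples. All points share library depth and composition, and the values are a description.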

How the data were processed

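The authors deposited raw read counts per gene for each library, made per the labels with CASAVA, STAR 2.3.0 and HTSeq on GRCm38.p2, and used DESeq2 themselves. The sources used here do not give the annotation they counted on. Totals were 9213474 to 28438296 counts on genes per library, which limits precision for genes near 1 CPM. Lines that name no gene (no feature, 8.59% to 15.9%, ambiguous and not unique) were left out. Of 38355 identifiers 36602 were named from GENCODE M21, and 236 of 238 list genes were matched.

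24M replicates 1 and 4 differed by less than the sampling noise (ratio 0.406, where 1.23 was the next lowest of 136 pairs), so their rounded mean counted as 1 sample. In R 4.3.3, edgeR 4.0.16 tested the counts by quasi-likelihood after TMM normalization and its default filter on low values, against the 3M group of the same library type, with Benjamini-Hochberg adjustment over all genes tested, and the interaction was fitted on all 4 groups. CPM and RPKM were computed here from the counts. The steps were tested on simulated data.

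The members and gene lists were chosen with earlier results of these data known. Named in each related list were the 2 genes with the smallest p at each age, the most abundant per length and all called genes; other names were added after their values were seen. The results of some single genes are left out of the text, and overlap of the groups is given for only some of the genes named. Alternatives were DESeq2 1.42.0, DESeq2's size factors, no filter, a stricter filter (1 CPM), the replicate number as a block, length and GC offsets (loess, span 0.3, GC of the longest transcript), all 4 groups in 1 fit, the 24M pair kept apart or left out, no fold threshold and each library left out.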

Additional observations from a re-analysis of the deposited data

Results flagged for a closer look

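In 102 groups of 5 samples, 11 held a sample whose gap to its nearest neighbour, as a share of the group's range, was beyond Dixon's 95% limit, where chance gives about 5.1. Values below are that share. Most of those at 24M were replicate 3. It was high for Tet2 (0.818, with 46.9 CPM where the median of the others was 34.1), Meg3 (0.727, with 1910 CPM against 852.5) and Ogt (0.915, with 381 CPM against 263), and low for Mbd3 (0.732, with 79.0 CPM against 97.2) and Ndn (0.841, with 202 CPM against 255).

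Among the 3M single-end libraries, replicate 5 was high for Tet1 (0.749, with 20.4 CPM against 15.6) and replicate 3 was low for Ogt (0.785, with 256 CPM against 274). Replicate 4 was high in the summed striatal markers (0.966, with 977 CPM against 460.5). Replicate 2 was high in the summed markers of newborn neurons (0.721, with 141 CPM against 113) and of the hypothalamus (0.803, with 11.7 CPM against 3.64). In 24M replicate 2 the summed blood genes were high (0.822, with 544 CPM against 116).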

How the results depend on the processing

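The count of members called stayed at 0 at 24M, at 29M and for the difference under every alternative run. Not every member could be called in each run. At 24M Dnmt3b and Uhrf1 had no adjusted p in DESeq2 and were under the stricter filter. At 29M Dnmt3b was under the default filter. The log2 fold changes at 24M that turned sign were small: Dnmt3b with the 24M pair left out (-0.0588), Tet2 with length and GC offsets (-0.0132) and with the replicate block and these offsets (-0.0132), and Tet3 with block and offsets (0.0301). The difference between ages turned for Dnmt1 with offsets (-0.00295) and block and offsets (-0.0158), and for Tet3 (-0.0233 and -0.0705). Leaving out 1 library gave -0.157 to 0.183 for Dnmt3b and -0.0808 to 0.0657 for Tet2 at 24M, -0.0626 to 0.00598 for Dnmt1, -0.0393 to 0.0455 for Dnmt3a and -0.0485 to 0.0504 for Tet3 at 29M, and -0.172 to 0.23 for the difference of Uhrf1. Related genes called at 24M were 1, and 2 with DESeq2, with no filter and with the pair kept apart, 3 in 1 fit of all 4 groups, 0 with the replicate block, 6 with no fold threshold and 1 to 3 with a library left out. At 29M they were 1, and 2 with DESeq2, no filter, the replicate block, offsets, or both, 0 in 1 fit of all groups, 4 with no fold threshold and 1 to 3 with a library left out. Magel2 was not called with the replicate block, nor with block and offsets, where Usp29 was, and Meg3 was not called in the fit of all groups. Peg10 was called lower at both ages by DESeq2 (-0.50 and -0.51) and with no filter (-0.51 and -0.51). At 24M it was also called in the fit of all groups (-0.51). At 29M Peg10 was also called with the replicate block (-0.50), with offsets (-0.54) and with both (-0.53). The same held at 29M without paired-end 3M replicate 1 (-0.60) and without 29M replicate 3 (-0.67). All genes called at 24M were 310, and 83 with the replicate block, 120 with block and offsets, 518 in 1 fit, 163 without the pair, 875 with no fold threshold and 119 (without 24M replicate 2) to 568 (without 3M replicate 5) with a library left out. At 29M they were 219, and 441 with no filter (a fit with implausibly small p-values), 86 in 1 fit, 451 with no fold threshold and 124 to 221 with a library left out. For the difference they were 0, and 0 to 92 with a library left out. Equal replicate numbers did not pair the samples (correlations of -0.137 to 0.0965), so the blocked counts say nothing of a weaker effect. The causes were not tested. Depth limits Dnmt3b and Uhrf1.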
